A study of Mus musculus with 5 samples.

Results

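The cell cluster pLN_1 is 1 of 2 lymph node clusters that the authors defined among sorted Vγ6 γδ T cells. It was taken here as column pLN_1 of the authors' table of mean expression, in which each of 8 columns gives the mean of every gene per 10000 transcripts in that cluster's cells. The other 7 columns were pLN_2, Skin and Thy_1 to Thy_5. Of 10721 genes in the table, 10440 had a mean above 0 in pLN_1 and 281 were listed at 0. The table gives no number of cells and no spread, so differences between columns are described without a test. How the clusters were drawn was not given in the sources used here, and the genes compared may themselves have drawn them.

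Single-cell libraries were made with a droplet kit that counts the 3' ends of transcripts by unique molecular identifiers (UMIs). C57BL/6 mice aged 8 weeks gave 1 library of Vγ6 cells for each of 3 organs, namely the ear skin, the thymus and the peripheral lymph nodes. Lymph nodes were the superficial cervical, axillary, brachial and inguinal nodes. A further library pooled Vγ6 cells of mice aged 8 to 10 weeks, with lymph node cells from TcrdCreER mice, thymus cells from ACT-FLPe mice and ear skin cells from TcrdH2BeGFP mice, and with no map from its cells to tissues. The labels do not say how many animals entered a library. Skin was digested with collagenase under shaking. Thymus cells were incubated with complement and with antibodies against CD4 and CD8β, whereas lymph nodes were passed through mesh with no incubation stated. Tissue and preparation therefore cannot be told apart in any comparison across organs. A library of Vγ4 cells from skin was not analysed here.

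γδ T cells that carry the Vγ6 chain arise in the fetal thymus and settle in skin, mucosae and other tissues, where they can be a rapid source of interleukin 17. Their programme rests on transcription factors such as c-Maf, encoded by Maf, and on receptors for IL-1, IL-7, IL-18 and IL-23. Klf2 encodes a factor that maintains S1pr1 and the exit of T cells from tissues, and its loss accompanies residence in tissues. Cd163l1 encodes SCART1, a scavenger receptor of γδ T cells.

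Both label genes were abundant in pLN_1, although neither marked it alone. The mean of Klf2 was 8.40 per 10000 in pLN_1, 8.30 in pLN_2, 0.388 in Skin, 7.92 in Thy_1, 2.27 in Thy_2, 1.76 in Thy_3, 3.94 in Thy_4 and 1.95 in Thy_5. pLN_1, pLN_2 and Thy_1 were therefore nearly level for Klf2, and Skin was lowest. Cd163l1 stood at 10.7 in pLN_1, 6.73 in pLN_2, 8.16 in Skin, 0.631 in Thy_1, 11.02 in Thy_2, 0.320 in Thy_3, 0.727 in Thy_4 and 0.374 in Thy_5. Thy_2 and pLN_1 were highest for Cd163l1, and the other thymus columns were all below 1. Genes of the T cell receptor complex were high as well, with Cd3d at 12.4, Cd3e at 10.9 and Cd3g at 33.2 per 10000, while Cd4 was listed at 0 and Cd8a stood at 0.00904.

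Among the libraries, that of the lymph nodes held the largest share of cells nearest to pLN_1. Its cells may be those averaged in the column, so a close match is no independent support. After cells with fewer than 200 genes or more than 10% mitochondrial UMIs were left out, the lymph node, skin, thymus and pooled libraries held 1458, 687, 2517 and 2006 cells and between 793463 and 6607432 UMIs. No doublets were removed, and pairs of libraries shared between 2 and 12 barcodes. The mean profile of the lymph node library was approximated by 68.75% pLN_1 and 24.58% pLN_2, with a residual of 3.404%. Each cell was also assigned to the column whose profile gave its counts the highest likelihood, on 1 of 2 disjoint sets of genes. In the lymph node library 1039 cells, or 71.3% (exact Clopper-Pearson 95% interval 68.9 to 73.6%, counting error only), were nearest to pLN_1 and 396 to pLN_2. Cells nearest to pLN_1 had a median of 1507 UMIs and 859 genes, against 4430.5 UMIs and 1763.5 genes for those nearest to pLN_2. In the thymus and skin libraries 0.636% and 0.582% of cells were nearest to pLN_1, compared with 20.7% of the pooled library. The 2 methods differed for the pooled library, whose mean profile was fitted with 2.14% pLN_1 and 26.62% pLN_2.

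**Figure D1:**
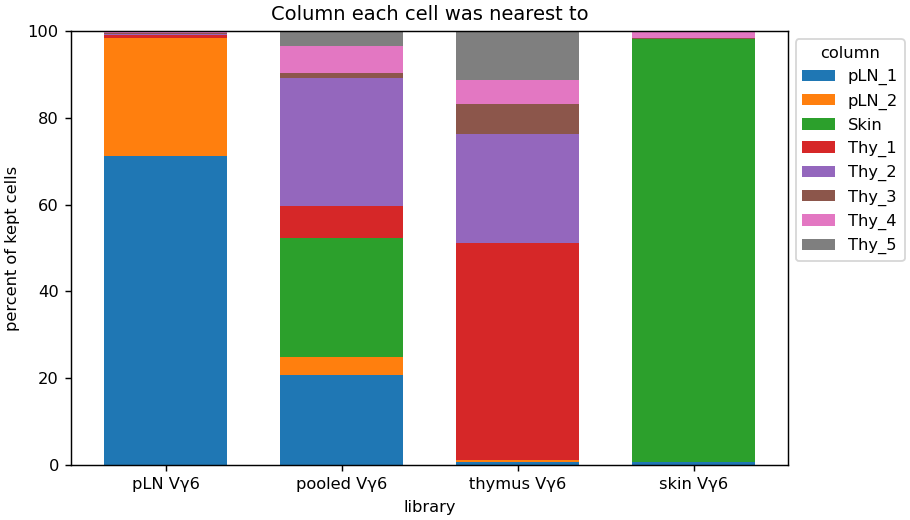
Percent of kept cells (vertical axis) in each Vγ6 library (horizontal axis) that were nearest to each of the 8 columns, shown as stacked colours. Cells nearest to pLN_1 made up 71.3% of the lymph node library and 20.7% of the pooled library, and under 1% of the thymus and skin libraries.

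Genes of the interleukin 17 programme were abundant in pLN_1. A list of 24 such genes summed to 121.6 per 10000 in pLN_1, 96.94 in Skin, 93.46 in Thy_2 and 66.31 in pLN_2, and to between 8.285 and 31.95 in the other thymus columns. pLN_1 was the highest column for 11 of the 24 genes, against 16.66% of the 7040 genes that reached 0.2 per 10000 in any column. The list was chosen with earlier results of these data known, so this share describes it and is no test. Cxcr6, encoding the receptor for CXCL16, had the highest mean of the list, at 32.1 in pLN_1, 16.9 in pLN_2, 27.7 in Skin, 0.851 in Thy_1, 13.1 in Thy_2, 2.18 in Thy_3, 2.13 in Thy_4 and 0.476 in Thy_5. pLN_1 and Skin were close to each other for Cxcr6, with a log2 difference of 0.21. Il7r, which encodes the receptor chain for the survival cytokine IL-7, was 11.5 in pLN_1, 1.79 in pLN_2, 3.08 in Skin, 2.33 in Thy_1, 7.22 in Thy_2, 2.60 in Thy_3, 2.49 in Thy_4 and 0.239 in Thy_5. Every other column was below pLN_1 for Il7r, with Thy_2 the nearest.

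The transcription factors of this programme were distributed unevenly. Maf was 7.001 in pLN_1, 6.34 in Skin, 4.70 in pLN_2 and 1.92 in Thy_2. Sox13, a factor of γδ T cell specification, was 0.547 in pLN_1 and at most 0.281 elsewhere. Rora, encoding the nuclear receptor RORα, went the other way and was 1.96 in pLN_1 against 8.56 in Skin and 4.59 in Thy_2. Among the receptors, Il18r1 was 9.17 in pLN_1 and 6.28 in Skin, whereas Il23r, at 2.08, was below Skin (2.92) and Thy_2 (2.21). Blk, a Src family kinase of these cells, was 4.43 in pLN_1 and 3.37 in Thy_2. 5830411N06Rik, which encodes SCART2, a scavenger receptor known from Vγ4 cells, was 0.0169 in pLN_1, near the floor of the table.

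Promoters of the programme genes were read for AGGTCA on either strand, the core of the element bound by RORα. RefSeq promoter sequence on GRCm38.p6 was found for 18 of the 24 genes, and 4 (22.2%) held the motif in the 250 bases before the start, against 13.8% of all 27025 genes. Ccr6 and Il23r, both cell surface receptors of the programme, are shown because they differ in how pLN_1 ranks among the columns. The Ccr6 window is chr17:8235793-8236042 on the plus strand, for 1 of 2 listed starts, and the Il23r window is chr6:67491856-67492105 on the minus strand. Capitals mark AGGTCA, which reads TGACCT where it lies on the opposite strand.
Ccr6: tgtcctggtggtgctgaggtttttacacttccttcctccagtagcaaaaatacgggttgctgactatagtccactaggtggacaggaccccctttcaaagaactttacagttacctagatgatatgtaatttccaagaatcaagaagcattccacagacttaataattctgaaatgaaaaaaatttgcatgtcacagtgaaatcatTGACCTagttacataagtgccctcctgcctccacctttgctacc
Il23r: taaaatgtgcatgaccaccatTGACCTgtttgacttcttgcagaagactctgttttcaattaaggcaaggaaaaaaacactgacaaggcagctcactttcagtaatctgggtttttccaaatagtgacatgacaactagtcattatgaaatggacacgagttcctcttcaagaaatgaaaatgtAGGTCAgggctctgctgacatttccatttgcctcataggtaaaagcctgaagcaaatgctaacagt
The Ccr6 window held 1 match and the Il23r window 2. A match is a run of letters and no measure of binding.

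Few genes set pLN_1 apart from all other columns. Of the 7040 genes, 5077 reached 0.2 per 10000 in pLN_1 and could be called above every other column. With a pseudocount of 0.1 per 10000 and at least 0.2 in pLN_1, 11 genes of 7040 (0.156%) were at least 2-fold above the highest other column, the same number as in Thy_1 and fewer than the 113 of pLN_2 and the 202 of Skin. Ccr6, which encodes the receptor for CCL20 (chromosome 17, 8236043 to 8257141, mm10), led those at 1 per 10000 or more. Its mean was 1.20 in pLN_1, 0.452 in pLN_2, 0.420 in Skin, 0.016 in Thy_1 and 0.411 in Thy_2, and it was listed at 0 in Thy_3, Thy_4 and Thy_5. The next were Txnip, an inhibitor of thioredoxin, at 1.30 against at most 0.524 elsewhere, and Lpar6, a receptor for lysophosphatidic acid, at 3.65 against 1.58 in pLN_2. Crot, an enzyme of peroxisomal fatty acid oxidation, was 1.80 against 0.759 in pLN_2, and Slfn2, a Schlafen gene linked to T cell quiescence, was 5.97 against 2.80 in Thy_1. The log2 differences of these 5 genes from the highest other column ran from 1.07 for Slfn2 to 1.24 for Ccr6.

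The 7 genes ranked next stood under 2-fold above the highest other column and lie just outside that limit. Pdrg1 had a log2 difference of 0.99, Gm42418 0.96 and Rasgrp1 0.95. Rasgrp1 couples the T cell receptor to Ras, and its mean was 1.09 in pLN_1 and at most 0.517 elsewhere. Lxn, Cd84, Rsrp1 and Tbc1d10c followed, with differences from 0.82 to 0.85. pLN_2 was the highest other column for Ccr6, Lpar6, Crot, Gm42418, Lxn and Tbc1d10c. With pLN_2 left out, 80 genes were at least 2-fold above all other columns, and with Thy_2 left out 36 were. Without Skin the number was 17.

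**Figure D2:**
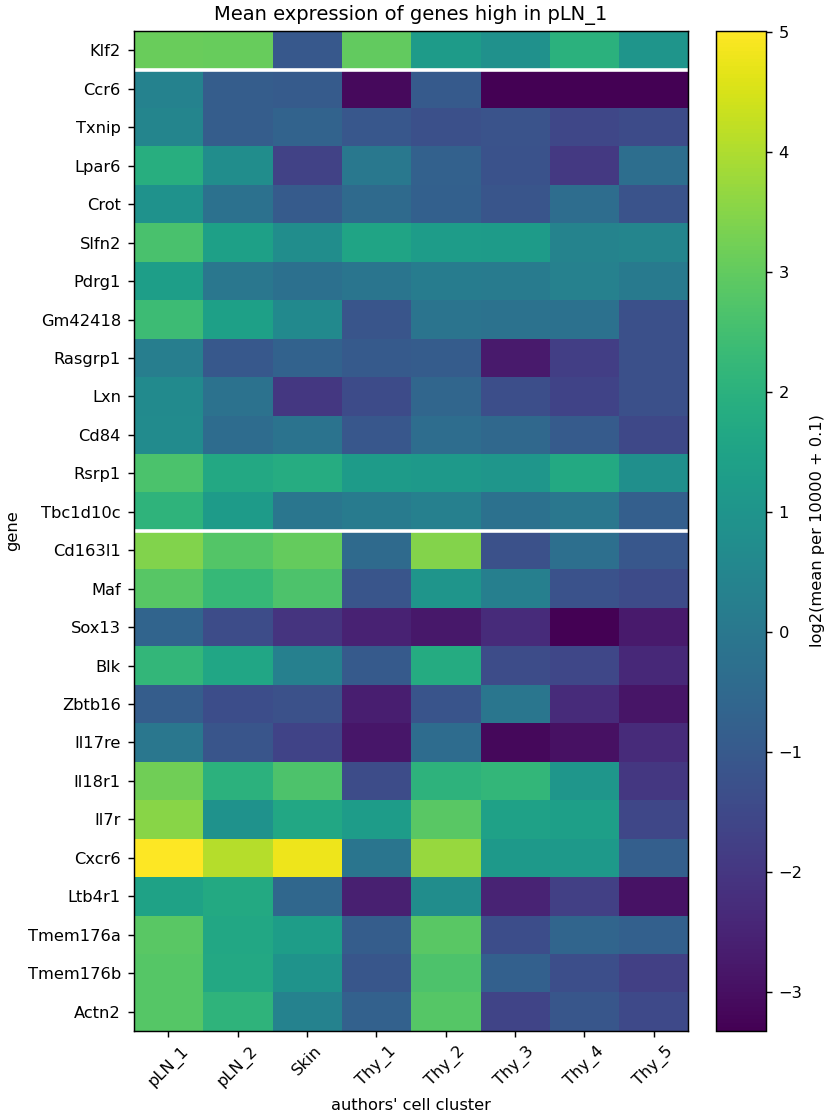
Mean expression, as log2(mean per 10000 + 0.1) in colour, of genes (rows) in the authors' 8 clusters (columns). White lines separate Klf2, the 12 genes ranked highest over every other column, and genes drawn from the interleukin 17 programme for which pLN_1 ranked first or second. Cxcr6 and Il7r are bright in pLN_1, and Thy_2 resembles it in the lower block while the other thymus columns are dark.

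Genes below every other column were fewer still, at 3 of 7040 (0.0426%) by 2-fold. Only genes at 0.2 or more in each other column could be called, and the 7040 include genes below that. The 3 genes were Hist1h2bc, a replication histone gene, Marcksl1 and Tinf2. Marcksl1 and Tinf2 lie outside the rule for named genes and were chosen after their values were seen. Marcksl1, encoding an actin-binding protein, was 0.0682 in pLN_1, 0.468 in pLN_2 and between 0.966 and 4.00 in the other columns. Tinf2, a telomere protein gene, was 0.0422 in pLN_1 and at least 0.230 elsewhere, and Hist1h2bc was 0.0820 against at least 0.278. Among genes at 1 or more in all other columns the lowest was Lmna, encoding lamin A and C of the nuclear envelope. Lmna was 0.576 in pLN_1, 1.24 in pLN_2, 21.1 in Skin, 1.11 in Thy_1, 6.96 in Thy_2, 2.06 in Thy_3, 3.22 in Thy_4 and 1.81 in Thy_5. Hsp90aa1, a stress-induced chaperone, was 4.66 in pLN_1, 7.84 in pLN_2, 13.5 in Skin and between 16.2 and 24.5 in the thymus columns. Ubald2 was 0.743 against at least 1.40, and Cebpb, a factor induced by cytokines, was 0.707 against at least 1.15. Without pLN_2 the number below all other columns was 70, and without Skin it was 5.

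The closest column to pLN_1 was pLN_2. Over genes at 0.2 per 10000 or more in either column, the log2 levels of pLN_1 had a Pearson correlation across genes of 0.900 with pLN_2, 0.879 with Thy_2, 0.797 with Thy_3, 0.794 with Thy_1, 0.771 with Thy_4, 0.739 with Thy_5 and 0.733 with Skin. Genes are not independent, and these values describe the order of likeness only. The share of genes differing by at least 2-fold ran from 9.42% against pLN_2 and 13.03% against Thy_2 to 34.9% against Skin.

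Genes of cell division were lower in pLN_1 than in pLN_2. Of 5520 genes, 211 (3.82%) were at least 2-fold higher in pLN_1 and 309 (5.6%) at least 2-fold lower than in pLN_2. All 24 measured S phase genes and all 24 genes of G2 and mitosis were lower in pLN_1, with median log2 differences of -1.85 and -2.41, against 0.10 over all genes. Of 13 measured replication histones 12 were lower. Rrm2, the ribonucleotide reductase subunit of S phase, was 0.949 in pLN_1, 12.02 in pLN_2, 0.355 in Skin, 1.70 in Thy_1, 0.509 in Thy_2, 0.836 in Thy_3, 1.33 in Thy_4 and 6.70 in Thy_5. pLN_2 and Thy_5 were the high columns for Rrm2, and pLN_1 lay among the low ones. Top2a, the topoisomerase of chromosome condensation, was 1.12 in pLN_1 and 10.6 in pLN_2. 2810417H13Rik, encoding the PCNA-associated factor, was 1.92 and 27.9. Hist1h2ae had the most negative difference, with 0.0849 against 4.54 and a log2 difference of -4.65.

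Cytokine receptor genes and type I interferon genes were among those higher in pLN_1 than in pLN_2. Il7r had the largest difference among genes at 1 per 10000 or more, with a log2 value of 2.62. It was followed by Clec2d, a ligand of the receptor NKR-P1B, at 1.41 against 0.272, and by Gab3, an adaptor of cytokine receptors, at 1.09 against 0.214. Ifngr1, a chain of the interferon γ receptor, was 4.20 in pLN_1 and 1.07 in pLN_2, although Thy_1 and Thy_4 were higher at 15.2 and 15.9. Of 19 measured cytokine receptor genes 6 were higher and 0 lower, with a median of 0.68. Within the interleukin 17 programme 8 of 23 genes were higher and 0 lower, with a median of 0.71. Type I interferon genes were 8 higher and 1 lower of 14, including Isg15 (0.867 against 0.217) and Zbp1 (0.693 against 0.275), with Ifitm3 the lower one. In cells of the pooled library 6 of these 8 higher genes kept their direction and 1 stayed 2-fold higher. Malat1, a nuclear RNA, was 451 in pLN_1 and 155 in pLN_2, where it was lowest of the 8 columns.

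**Figure D3:**
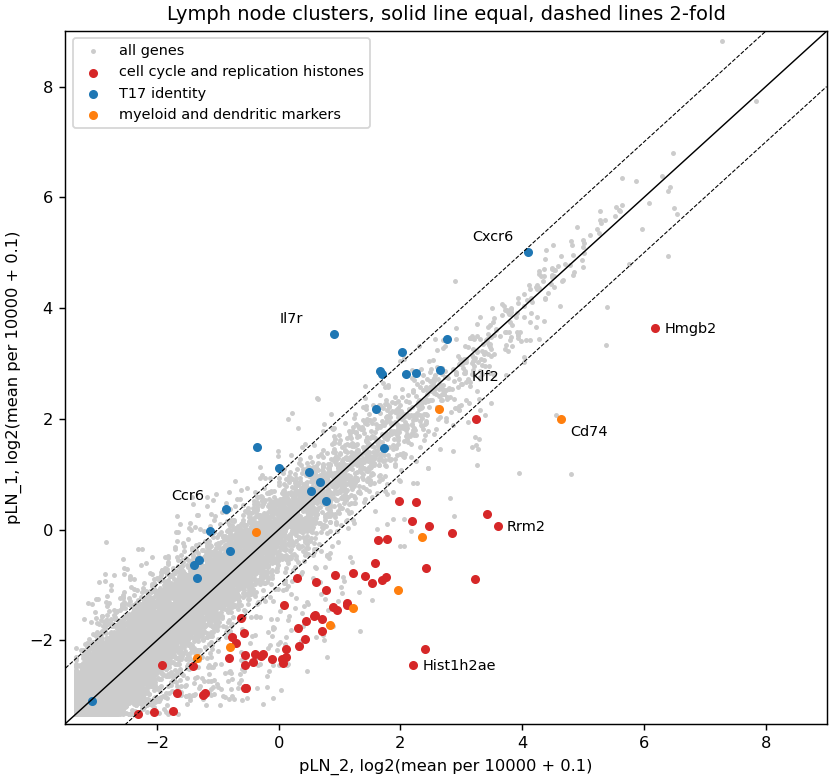
Mean expression in pLN_1 (vertical) against pLN_2 (horizontal), each as log2(mean per 10000 + 0.1), 1 point per gene. Cell cycle and replication histone genes (red) lie below the lower 2-fold line with few exceptions, interleukin 17 programme genes (blue) lie mostly above the line of equality, and the myeloid and dendritic markers (orange) lie mostly on the pLN_2 side.

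Markers of antigen-presenting cells also differed between the lymph node clusters. Of 9 measured myeloid and dendritic markers 6 were lower in pLN_1, with a median log2 difference of -2.49, and the list summed to 11.07 in pLN_1, 45.15 in pLN_2 and between 2.982 and 10.8 elsewhere. Across organs these markers were mostly higher in pLN_1. They were 5 higher and 0 lower of 7 against Skin, and 6 higher and 1 lower of 9 against the thymus mean. Against Thy_2 they were 4 higher and 0 lower of 7. Over all genes 22.8%, 8.43% and 6.18% were higher in the same order. Cd74, the invariant chain of MHC class II, was 3.88 in pLN_1, 24.9 in pLN_2, 1.97 in Skin and between 0.202 and 0.639 in the thymus columns. H2-Aa, an MHC class II chain, was 0.367, 3.77 and at most 0.126 in the same order, and the macrophage gene Lyz2 was 0.274 in pLN_1, 2.23 in pLN_2 and listed at 0 elsewhere. The B cell gene Cd79a was 0.0469 in pLN_1 and 0.540 in pLN_2. Cd79b, also a B cell gene, was not lower, at 1.19 in pLN_1 and 1.028 in pLN_2, and at most 0.3695 in the other columns. In pLN_1, markers of NK cells summed to 0.0698, of mast cells to 0.02207 and of αβ T cells and thymocytes to 0.1286. The part of these cells or of the higher UMI number of pLN_2-like cells in the differences above was not tested.

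Compared with Skin, pLN_1 was low in genes of acute activation and of cytokine production. Of 5732 genes, 1306 (22.8%) were at least 2-fold higher and 694 (12.1%) at least 2-fold lower in pLN_1. Higher genes made up 65.3% of these calls, and 41.68% when the columns were scaled by median-of-ratios factors instead, with 764 higher and 1069 lower. The median log2 difference of all genes was 0.31 as deposited and -0.08 with those factors. Il17f, encoding interleukin 17F, was 0.0203 in pLN_1, 0.0249 in pLN_2, 10.9 in Skin, 0.017 in Thy_1, 0.453 in Thy_2, 0.0616 in Thy_4 and listed at 0 in Thy_3 and Thy_5. Il17a was 0.149 in pLN_1, 0.0727 in pLN_2, 6.81 in Skin and 1.18 in Thy_2, and at most 0.0894 in the other thymus columns. Skin was the only high column for Il17f, with a smaller level in Thy_2 for both genes. Areg, encoding the repair factor amphiregulin, was 0.0123 against 6.66, and the neutrophil chemokine gene Cxcl2 was 0.0118 against 5.91. Of 13 measured effector cytokine genes 0 were higher and 10 lower, with a median of -2.67.

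Ltb and Lta, which encode the lymphotoxins, were exceptions among the cytokine genes. Ltb was 22.3 in pLN_1, 21.6 in Skin, 11.2 in Thy_2, 7.37 in pLN_2, 3.66 in Thy_3, 3.44 in Thy_4, 3.39 in Thy_1 and 0.905 in Thy_5. pLN_1 and Skin were level for Ltb. Lta was 0.475 in pLN_1 and 0.394 in Skin, and below 0.1 in each of the other 6 columns.

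All 15 measured NF-κB target genes were lower in pLN_1 than in Skin, with a median log2 difference of -2.99. Nfkbia, the inhibitor induced by NF-κB, was 1.40 against 25.7, and Rel was 0.217 against 9.78. Immediate early genes were lower in 22 of 23 cases, with a median of -2.15. Among them Gadd45b was 0.198 against 18.0, Junb 3.34 against 34.0 and the receptor signalling target Nr4a1 0.0669 against 5.18. Heat shock genes were lower in 8 of 12, including Hspa1a (0.449 against 8.53). The protective Bcl2 relatives Bcl2a1b and Bcl2a1d were 3.52 against 41.0 and 1.96 against 23.7. Of 10 measured genes linked to tissue residence 1 was higher, the chemokine receptor gene Ccr10, and 6 were lower, including Rgs1 (1.35 against 11.9) and Cd69 (1.84 against 9.12), an antagonist of S1pr1.

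Genes of circulation, of the GIMAP family and of the interferon response were higher in pLN_1 than in Skin. Of 18 measured circulation genes 9 were higher and 2 lower, with a median of 1.01. Klf2 had a log2 difference of 4.12, and S1pr1, the receptor for exit into lymph, was 0.919 against 0.213. The integrin chain Itgb1 was 3.59 against 0.377. All 7 measured GIMAP genes, which encode GTPases of lymphocyte survival, were higher, with a median of 2.40. Type I interferon genes were 11 higher and 1 lower of 14, among them Ifi203 (5.32 against 0.575) and Zbp1 (0.693 against 0.0275), with Oasl2 the lower one. Against the thymus mean this did not hold. There 0 of 7 GIMAP genes were higher and 3 lower, and 1 of 14 interferon genes was higher and 4 lower. Psmb10, a subunit of the immunoproteasome, was 2.81 against 0.0790, and Acsbg1, a fatty acyl-CoA synthetase gene, was 2.40 against 0.0974. The keratinocyte markers measured summed to 0.6499 in pLN_1 and 2.91 in Skin, of which Sfn contributed 0.0730 and 2.47. Of these 4 markers only Krt10 was higher in pLN_1 than in Skin, at 0.5105 against 0.3345. Haemoglobin genes were low in both.

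Dividing-cell genes gave a mixed picture against Skin. In the means 6 of 16 S phase genes and 7 of 14 genes of G2 and mitosis were higher in pLN_1, and 0 were lower. In cells of the pooled library nearest to each column 5 of the 6 S phase genes and 0 of the 7 genes of G2 and mitosis kept that direction, and the log2 difference turned to -0.48 for Rrm2, -0.55 for Birc5 and -0.56 for Ccnb2.

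Against the mean of the 5 thymus columns, pLN_1 was lower in thymocyte maturation genes and higher in the interleukin 17 programme. Of 5741 genes, 484 (8.43%) were at least 2-fold higher and 514 (8.95%) at least 2-fold lower. Within the programme 17 of 24 genes were higher and 2 lower, namely Icos and 5830411N06Rik, with a median of 1.92 against 0.10 over all genes. The largest difference among genes at 1 per 10000 or more was that of Cxcr6, with a log2 value of 3.06, and Maf followed with 2.98. Ccr2, encoding a receptor for monocyte chemoattractants, was 7.08 in pLN_1 and 4.65 in Thy_2, and at most 0.685 in the other thymus columns. Of 18 measured S100, annexin, galectin and related genes 11 were higher and 1 lower, Lmna being the lower one. S100a6, a calcium-binding protein gene, was 54.3 in pLN_1, 34.0 in Thy_2 and between 1.21 and 9.53 in the other thymus columns. Cd48 was 12.6 in pLN_1 and between 0.688 and 3.66 in the thymus.

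Thymocyte maturation genes were lower in 13 of 15 cases, with a median of -3.43. Sox4 was 0.0388 in pLN_1, 4.97 in Thy_1, 0.366 in Thy_2, 0.716 in Thy_3, 2.05 in Thy_4 and 4.17 in Thy_5. Cd24a, a surface mark of immature cells, was 0.0436 in pLN_1 and between 0.540 and 7.73 in the thymus columns. Among 12 measured cytotoxic genes 9 were lower and 1 higher, with Gzma, encoding granzyme A, at 0.0262 against 24.8 in Thy_5 and 8.22 in Thy_1. The summed level of the cytotoxic list was 17.1 in pLN_1, 15.45 in Thy_2, 21.63 in Thy_3, 21.64 in Thy_1, 29.75 in Thy_5 and 91.66 in Thy_4, so pLN_1 was not below Thy_2 by that sum. By gene it was, with 5 of 9 measured members lower and 1 higher against Thy_2 and a median log2 difference of -1.08. Thy_4 stood apart through genes such as Ccl5, a chemokine gene, which was 45.77 in Thy_4, 0.621 in pLN_1 and 0.626 in Thy_3. Bcl2l11, which encodes the death-promoting protein BIM, was 0.227 in pLN_1 and between 1.17 and 5.02 in the thymus. It was the only lower member of 8 death-promoting Bcl2 relatives, of which Bik and Bad were higher, with log2 differences of 1.58 and 1.16 and their highest level of the 8 columns in pLN_1. The median of that list was 0.53. The circulation genes were 3 higher and 10 lower of 21, and Ccr7 and Lef1 were both higher in Thy_1 than in pLN_1. Of 4 NK cell markers in the table, Gzma made up nearly all of the sums of 8.26 in Thy_1 and 24.92 in Thy_5, while Klra9 and Klrb1c were highest in Thy_4, at 2.238 and 0.951. Both were at most 0.0881 in the other columns. Mast cell markers summed to 2.128 in Thy_1. Markers of αβ T cells and thymocytes summed to 5.855 in Thy_5, between 0.2232 and 1.138 in the other thymus columns and 0.1286 in pLN_1. In Thy_5, Cd8b1 was 3.474 and Cd8a 2.075. The part of such cells in these differences was not tested.

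Some genes were low in pLN_1 and pLN_2 and high in both skin and thymus. Vps37b, encoding a subunit of an endosomal sorting complex, was 0.318 in pLN_1, 0.533 in pLN_2, 11.9 in Skin, 14.2 in Thy_1, 12.7 in Thy_2, 9.60 in Thy_3, 15.1 in Thy_4 and 8.22 in Thy_5. Crem, a cyclic AMP response gene, was 0.424 in pLN_1, 0.720 in pLN_2, 13.1 in Skin, 14.9 in Thy_1, 13.7 in Thy_2, 14.2 in Thy_3, 16.3 in Thy_4 and 8.75 in Thy_5. Both genes were named for being among the 10 lowest in pLN_1 against the thymus mean, so that gap follows from the choice. Immediate early genes were lower than the thymus mean in 12 of 22 cases, heat shock genes in 10 of 13, activation and checkpoint genes in 10 of 13 and NF-κB targets in 7 of 14, and none of these lists had a higher member. Among heat shock genes Hspa8 was 12.04 in pLN_1 and between 23.2 and 40.2 in the thymus. Skin and thymus were the organs with a stated incubation, and the part of the preparation in these genes was not tested.

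Thy_2 was the thymus column most like pLN_1, and was compared with it on its own after the columns had been seen. Of 5534 genes, 342 (6.18%) were at least 2-fold higher and 379 (6.85%) at least 2-fold lower in pLN_1. Within the interleukin 17 programme 15 of 23 genes were within 2-fold of Thy_2. Higher were 6, among them Ccr6, Cxcr6, Il18r1, Maf and Sox13, and lower were Rora and Icos. Actn2, encoding an actinin, was 6.88 in pLN_1 and 6.87 in Thy_2. Il22, encoding interleukin 22, had the most negative difference, with 0.0129 in pLN_1 and 4.91 in Thy_2. Lpar6 had the largest positive one, with 3.65 against 0.502. Klf2 was higher, with a log2 difference of 1.84, and the chaperone Hspa1a was lower, with -4.71. Heat shock genes were lower in 12 of 13 cases, immediate early genes in 14 of 21 and NF-κB targets in 10 of 15. In cells of the pooled library nearest to the same columns all 12 heat shock genes kept their direction and 1, Hspa5, was 2-fold lower, with Hspa1a at -0.78. Of the immediate early genes 13 of 14 stayed 2-fold lower there and of the NF-κB targets 6 of 10, while 2 of the 6 higher interleukin 17 programme genes stayed 2-fold higher. Scaling by median-of-ratios factors changed the share of higher calls from 47.43% to 31.14%, with 199 higher and 440 lower.

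Most members of the housekeeping groups were within 2-fold in each comparison, and most exceptions were against Skin. Of 81 measured cytosolic ribosomal protein genes 0 passed 2-fold in any of the 4, and their sum was 1720 per 10000 in pLN_1 against 1580 to 2417 elsewhere. Oxidative phosphorylation genes passed only against Skin, where 7 of 34 were higher, and proteasome genes were higher in 7 of 28 against Skin, in 1 of 28 against pLN_2 (Psmb10) and in 1 of 28 against Thy_2 (Psmb9). MHC class I genes were higher in 3 of 11 against Skin (Tap1, Tap2 and H2-T22) and in 1 of 11 against pLN_2 (H2-Q4), and 0 of 11 passed against the thymus mean or Thy_2. Of all genes 22.8% were higher against Skin. The shares of oxidative phosphorylation, proteasome and MHC class I genes higher there were near that of all genes. Glycolysis genes were lower in 4 of 16 against Skin, including Hk2 (0.243 against 4.85), and in 3 of 15 against the thymus mean. Over all genes 12.1% were lower against Skin and 8.95% against the thymus mean.

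**Figure D4:**
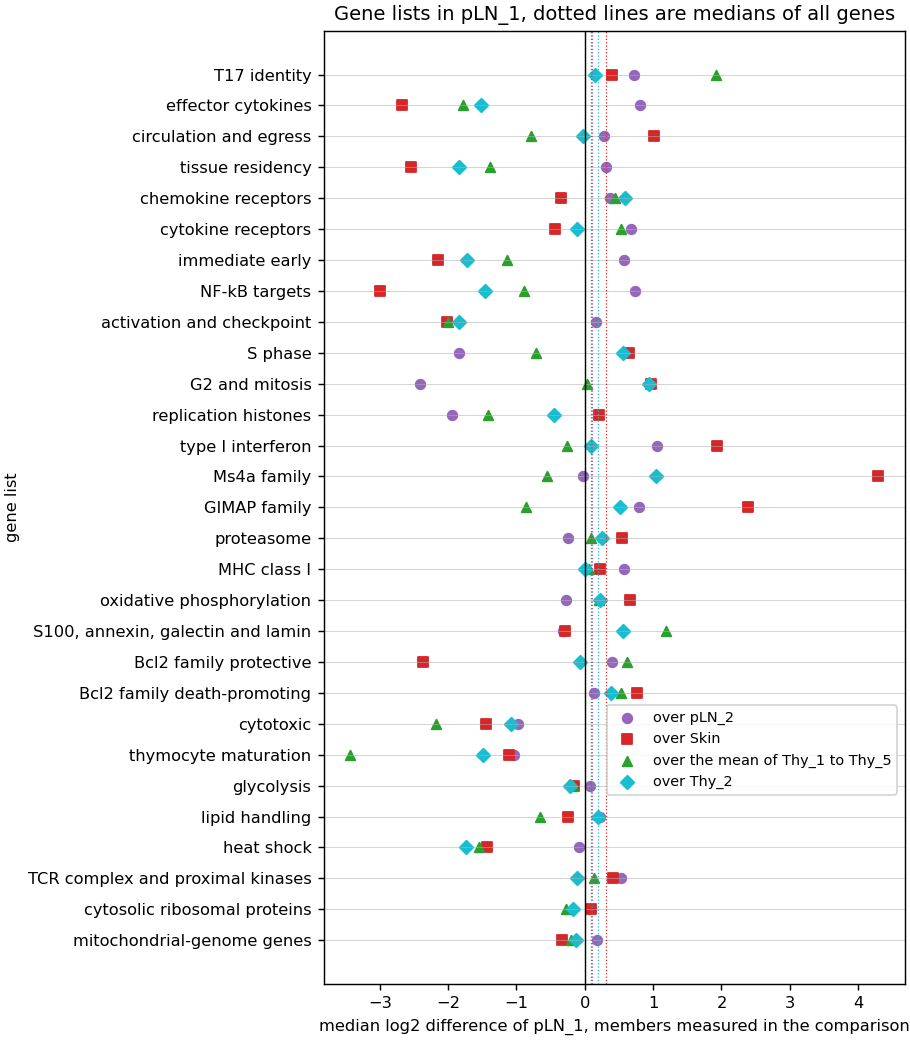
Median log2 difference of pLN_1 (horizontal axis) for each gene list (vertical axis), over the members at 0.2 per 10000 or more in the higher column, in 4 comparisons shown as symbols. Dotted lines are the medians of all genes. Cell cycle lists lie far left against pLN_2, NF-κB targets far left against Skin, and thymocyte maturation far left against the thymus mean, while the interleukin 17 list (T17 identity) lies at 1.92 against the thymus mean. The point farthest right is the Ms4a family against Skin, at 4.29 over 2 genes.

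The pooled library came from mice of other strains. Its mean was poorly approximated by the 8 columns, with a residual of 21.73% against 2.269 to 3.488% for the 3 tissue libraries. That fit gave pLN_1 a weight of 2.14% and pLN_2 26.62%, unlike the shares of nearest cells below. Cells were matched to columns on one set of genes and read on the others. Because genes vary together, likeness to the matched column is partly built in. The sources do not say which libraries' cells were averaged in the columns. The values below are therefore no independent repeat of the means. Of its 2006 cells, 416 were nearest to pLN_1, 82 to pLN_2, 550 to Skin and 593 to Thy_2 on one set of genes, and 455, 69, 553 and 541 on the other. These cells were nearest to a column by profile, and their tissue is not known. Cxcr6 was 32.2 per 10000 UMIs in the cells nearest to pLN_1 (exact Poisson 95% interval 30.7 to 33.8, counting error only), 21.6 in those nearest to Skin and 22.01 in those nearest to Thy_2. Klf2 was 10.5 (9.69 to 11.4), 0.898 and 1.04 in the same order, and Il7r was 8.00 (7.31 to 8.74), 3.17 and 8.22. Ccr6 was 0.828 (0.604 to 1.11) in cells nearest to pLN_1, 0.212 in those nearest to pLN_2 and 0.387 in those nearest to Thy_2.

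Most differences of the means kept their direction in these cells. The share of all genes that kept their direction was not computed. Of the 210 genes higher in pLN_1 than in pLN_2 that could be read, 188 were above 0 on the log2 scale and 104 were 2-fold higher (49.52%, against 9.866% of all genes). Of the 309 lower genes 300 were below 0 and 235 were 2-fold lower (76.05%, against 7.653% of all genes). Against Skin, 1254 of 1303 higher and 661 of 694 lower genes kept their direction, and against the thymus mean 453 of 484 and 484 of 513 did. Against Thy_2 the numbers were 292 of 342 and 341 of 378. Those that stayed 2-fold were 788 (60.48%) and 478 (68.88%) against Skin, 240 (49.59%) and 301 (58.67%) against the thymus mean, and 77 (22.51%) and 174 (46.03%) against Thy_2. Of all genes in these cells, 18.97% were 2-fold higher and 11.32% 2-fold lower against Skin. The same shares were 7.374% and 8.891% against the thymus mean, and 3.889% and 4.178% against Thy_2. Vps37b was 1.03 (0.779 to 1.34) in cells nearest to pLN_1, 16.8 in those nearest to Skin and between 6.91 and 22.3 in those nearest to the thymus columns. Il17a was 0.887 (0.666 to 1.16), against 3.58 for Skin and 5.31 for Thy_2. For Hsp90aa1 the cells nearest to pLN_1 gave 2.14 (1.78 to 2.54) and those nearest to Thy_2 gave 2.75, a much narrower gap than the 4.66 and 22.4 of the means. Gzma was 1.51 (1.20 to 1.87) in the cells nearest to pLN_1, above the 0.0537 of those nearest to Thy_2, which is opposite to the means, but only 0.962% of the former cells held a Gzma UMI, so a few cells carried the level. Cd74 reached 66.8 in cells nearest to pLN_2 and 3.10 in those nearest to pLN_1.

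**Figure D5:**
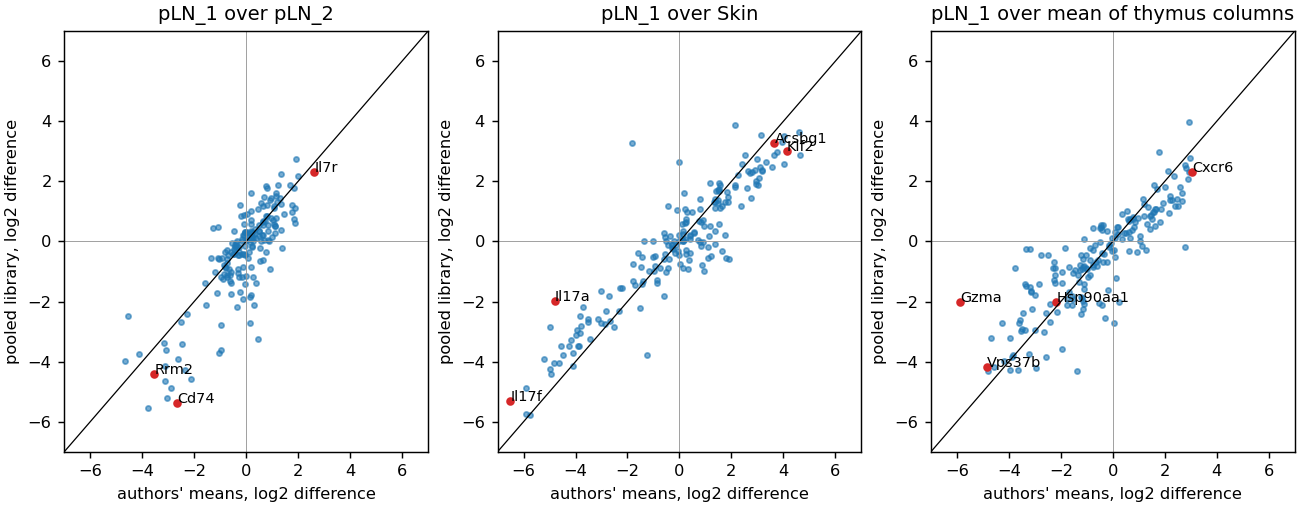
Log2 difference of pLN_1 for the named genes in the authors' means (horizontal) and in cells of the pooled library nearest to each column (vertical), against pLN_2, Skin and the mean of the thymus columns. The black line marks equal differences and red points are labelled genes. Most points lie where both differences have the same sign, with Il7r and Cxcr6 near the line and Gzma closer to 0 in the pooled library than in the means.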

How the data were processed

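Single-cell 3' libraries were processed by the authors with Cell Ranger 2.0, Seurat 2.3 and the mouse build mm10, per the submitters' processing notes, which do not give the role of each. The authors deposited raw UMI counts for each library, and a table of cluster means in which each column sums to 10000, so its unit is normalized expression. The deposited marker table of each cluster against other cells was not used. The members and gene lists were chosen with earlier results of these data known.

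Log2 differences used a pseudocount of 0.1 per 10000, so they understate changes of low genes, and a gene was called at 2-fold with at least 0.2 in the higher column (in the lowest other column for genes below every other column). A list member was measured in a comparison if it reached 0.2 there. The thymus reference was the unweighted mean of 5 columns. Each group had 1 library and the columns had no spread, so no test was made. Named genes were the 12 highest over and the 12 lowest under every other column, the 10 highest and 10 lowest in each comparison (all at 1 per 10000 or more, without ribosomal protein and mitochondrial genes), the label genes, up to 4 per list and the 20 highest means. Thy_2 was added after seeing the columns, and other members of the 37 lists are quoted as examples. Cells with at least 200 genes and at most 10% mitochondrial UMIs were kept, 10707 table genes were matched to the matrices, and cells were assigned to columns by multinomial likelihood on alternate genes. PCR copies share UMIs, and intervals cover counting error only. Gene coordinates are from GENCODE vM21 (GRCm38, the assembly of mm10). Scripts ran in Python 3.11.15 with numpy 2.4.6, scipy 1.17.1 and pandas 2.3.3 and were tested on simulated data. Alternatives were other pseudocounts and minimums, median-of-ratios scaling, ribosomal and mitochondrial genes left out, columns left out, library sums and the pooled library. Some genes of the lists enter the counts and are not reported here by name.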

Additional observations from a re-analysis of the deposited data

How the results depend on the processing

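No paired analysis was possible because each group had 1 library and the means carry no replicates. Counts of genes past 2-fold depended on the pseudocount and the minimum level. With a pseudocount of 0.01 per 10000 the counts were 449 higher against pLN_2, 751 against the thymus mean and 639 against Thy_2, 37 above every other column and 6 below. With a pseudocount of 1 they were 11 higher and 79 lower against pLN_2, 150 and 201 against Skin, 65 and 101 against the thymus mean, 20 and 90 against Thy_2, and 0 above and 0 below every other column. With a minimum of 1 per 10000 they were 59 and 140, 444 and 347, 202 and 202, 101 and 163, and 5 above and 0 below. Median-of-ratios factors gave 764 higher and 1069 lower against Skin, 199 higher against Thy_2 and 5 above every other column, and moved the share of higher calls against pLN_2 from 40.58% to 29.76%. Leaving out each other column gave 12 to 80 genes above and 3 to 70 below every other column, and leaving out each thymus column gave 454 to 577 higher and 482 to 559 lower. Cells of the pooled library gave 665 higher and 658 lower against pLN_2 and 250 lower against Thy_2. The share of lymph node cells nearest to pLN_1 was 69.8 to 71.3% under other filters and gene sets.

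Of 2835 settings of 297 gene differences, 2444 kept direction and call, 365 kept direction only and 26 reversed. Part of this was fixed in advance. Another pseudocount or minimum cannot reverse a gene, and a pseudocount of 0.01 or no minimum cannot undo a call. Of 1064 settings of 116 list medians 889 moved by less than 0.5 on the log2 scale, 165 by 0.5 or more, and 10 of those at 1 or more in size reversed. The cause of the reversals was not tested. In the pooled library the log2 difference became 0.46 for Ccl5 against pLN_2. Against Skin it became -0.55 for Birc5, 3.26 for Ccl5, -0.56 for Ccnb2, -0.31 for H2-Aa, -0.073 for Hist1h1b, -0.48 for Rrm2 and 0.52 for the thymocyte list. Against the thymus mean it became -0.18 for Cd74 and 0.074 for mt-Nd3. Against Thy_2 it became 0.60 for Ccr7, 0.31 for Ccr9, 3.03 for Gzma, -0.25 for Hist1h1b, 1.08 for Hist1h2bc, 0.67 for Lck, 1.03 for Nkg7, 0.80 for Plac8, 0.55 for the cytotoxic list and 0.49 for the thymocyte list. With the median of the thymus columns it became 0.11 for Cd40lg, 0.11 for Klrb1c, 0.71 for Ms4a4b and 0.032 for the residency list. A minimum of 1 turned the thymocyte list to 0.29 against pLN_2 and 0.49 against Thy_2. No minimum gave 0.0096 for the activation list, 0.00088 for the cytotoxic list and 0.13 for the thymocyte list against Skin. Library sums, which include pLN_2-like cells, gave 1.96 for Hist1h2ap against Skin, and against thymus 0.33 for Fabp5, 1.75 for Hist1h2ae, 0.17 for Hist1h2ap, 0.71 for Lig1, 1.41 for Rrm2 and 0.74 for the histone list. The means have no depth of their own, so low levels carry an unknown error.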

Other observations

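Within the lymph node library, cells matched on one set of genes repeated the contrast between pLN_1 and pLN_2 on the genes the match did not use. Of 210 genes higher in pLN_1 in the authors' means, 210 were above 0 in these cells and 146 were 2-fold higher. Of 309 lower genes 308 were below 0 and 270 were 2-fold lower. These cells probably include those behind the means, so the values describe how the columns map to cells and are no independent repeat. Il7r was 10.7 per 10000 UMIs in cells nearest to pLN_1 (exact Poisson 95% interval 10.3 to 11.2, counting error only) and 1.75 in those nearest to pLN_2. Malat1 was 422.5 and 121.1, and Cd74 was 5.59 and 13.3.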
